A study of Mus musculus with 32 samples.

Results

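Cells that received a miR-29a mimic were compared with cells that received a miR-146a mimic, both under vehicle. All 8 libraries labelled VEH_miR-29a or VEH_miR-146a were taken, 4 of each, out of 32 in the series, and every gene of the table was considered. The scramble libraries of the series do not enter this contrast, so each difference lies between both active mimics and has no untreated side. All libraries came from BV-2, an immortalised line made from mouse microglia, the macrophages that live in brain tissue. The labels give wild-type genotype and call the line a murine glioblastoma line. VEH_miR-29a cells were transfected with a mimic of miR-29a-3p and VEH_miR-146a cells with a mimic of miR-146a-5p, and neither group received lipopolysaccharide (LPS). The LPS_miR-29a and LPS_miR-146a groups, used below as a second set of libraries, received the same mimics and LPS, a bacterial cell wall component, at 10 ng/ml for 24 h. The labels and the methods of the study give the order of LPS treatment and transfection differently. VEH_scramble and VEH_miR-7a libraries, from cells given a scramble mimic or a mimic of miR-7a-5p, are cited for their levels, and the scramble libraries also for a few fold changes of each mimic against them. The study states 4 independent experiments, and all of them used 1 cell line.

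A microRNA is a short RNA that guides Argonaute proteins to messenger RNAs whose 3' untranslated region (3' UTR) pairs with bases 2 to 8 of the microRNA, the seed. The messenger is then translated less or degraded. A mimic is a synthetic duplex that loads the cell with 1 such microRNA. The miR-29 family is known for lowering DNA methylation enzymes and extracellular matrix genes, and miR-146a for lowering adaptors of Toll-like receptor signalling, through which macrophages respond to LPS. In a contrast of both mimics, a direct target of miR-29a would lie on the lower side and one of miR-146a on the higher side. Log2 fold changes here are positive where the level was higher with miR-29a.

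Both mature sequences are shown because the seed, in capitals, defines what each mimic can pair with. They are credited to RefSeq (GRCm38.p6), where miR-29a-3p lies at chr6:31062673-31062694 on the minus strand and miR-146a-5p at chr11:43374435-43374456 on the minus strand.
mmu-miR-29a-3p: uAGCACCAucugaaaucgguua
mmu-miR-146a-5p: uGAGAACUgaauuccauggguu

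Matching 8-base sites stand in the 3' UTRs of the target genes on which the first results turn. One site per gene is printed with 10 bases on either side, written as DNA on the strand of the gene (GENCODE M21 transcripts, GRCm38). Capitals mark the match to bases 2 to 8 followed by A.
Dnmt3a, chr12:3911395-3911422, plus strand: gggaggtagcTGGTGCTAgcaccagggt
Tet3, chr6:83364326-83364353, minus strand: gtctaataaaTGGTGCTAtggtgtttca
Tet2, chr3:133466163-133466190, minus strand: taacattaaaTGGTGCTAcaaatggtgt
Tdg, chr10:82649667-82649694, plus strand: gcattttccaTGGTGCTAcagacagcct
Irak1, chrX:74015383-74015410, minus strand: cagaggtcaaAGTTCTCAtgcttggaag
Notch1, chr2:26459253-26459280, minus strand: aaaataaactAGTTCTCAgagccttgat
Dnmt3a, Tet2 and Tet3 each hold 2 such 8-base sites for miR-29a, Irak1 holds 2 for miR-146a at positions 40 and 56 of its 3' UTR, and Tdg and Notch1 hold 1. A match of these letters is a description and not a measured binding site.

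The values are counts per gene restored from the deposited table and given as CPM, the count per 1 M (mega) counts of the library, after scaling by the trimmed mean of M values (TMM). Library totals ran from 3.57 to 9.75 M counts with miR-29a and from 1.67 to 9.7 M with miR-146a. A level of 3 counts thus corresponded to 0.308 to 1.80 CPM, and for genes near it a difference is not detectable. BV-2 libraries carried the microglial markers fixed for this check at a summed 4950 to 5300 CPM with miR-29a and 5660 to 6990 CPM with miR-146a. Csf1r, Tyrobp and Cd68 lay between 375 and 1520 CPM in all 8 libraries, whereas Cx3cr1 stayed at or below 1.18 CPM. None of the 10 astrocyte or glioma markers passed 1 CPM in any library, so these genes go against the glioblastoma label. Neuron markers did not pass 1 CPM either, while the endothelial list summed to 378 to 517 CPM, nearly all of it Flt1 and Kdr, with Cldn5 at 0 and Cdh5 and Pecam1 at or below 1.27 CPM. The precursor gene Mir29a held at most 4 counts in any library, and mature microRNAs are not measured by such libraries, so delivery of the mimics was not checked here.

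Of 11932 genes tested, 394 differed between the mimics (3.30%), 173 higher with miR-29a (1.45%) and 221 lower (1.85%). A gene was called at a Benjamini-Hochberg adjusted p under 0.05 in limma-voom and an absolute log2 fold change above 0.3, and 2667 genes had an unadjusted p under 0.05. Taking the replicate number as a block gave 627 calls (5.25%), 242 higher and 385 lower, and 333 of them were among the 394. The levels of the 4 libraries of one mimic did not overlap those of the other for 171 of the 173 genes called higher and for 218 of the 221 called lower, against 14.4% of all genes tested. The calls were made on these same levels, so this separation is not further evidence. As the libraries are bulk, a change in every cell and a change in a share of the cells cannot be told apart. The count rests on single libraries: it was 34 without VEH_miR-29a replicate 3, 60 and 65 without VEH_miR-146a replicates 3 and 2, 88 without VEH_miR-29a replicate 2, 109 without VEH_miR-146a replicate 1, and 353 without VEH_miR-146a replicate 4. Without VEH_miR-29a replicate 1 or 4 it was 260 and 228.

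The difference between the mimics ran with the GC content of the transcripts. The median log2 fold change went from -0.27 in the quintile of genes with the lowest GC content to 0.25 in the quintile with the highest, and 70 of the genes in the highest quintile were called higher while 6 were called lower. In replicate 2 the median log2 ratio spanned -0.52 to 0.57 over these quintiles, whereas in replicate 4 it spanned -0.088 to 0.013. VEH_miR-29a replicate 2 also held the largest share of counts in small structural RNA genes, 18.8%, against 3.81% to 7.26% in the other 7 libraries. The mean share was 9.34% ± 6.41 (SD, n = 4) in VEH_miR-29a and 5.03% ± 1.53 (SD, n = 4) in VEH_miR-146a, a difference that did not exceed the spread (two-sided exact permutation p = 0.286, where 0.0286 is the smallest possible). With the trend in GC content and length removed, in a limma-trend fit, 222 genes were called, 61 higher and 161 lower, where limma-trend without the removal called 387, 179 higher and 208 lower. Without TMM 249 were called in limma-voom, 144 higher and 105 lower. The split between higher and lower calls therefore depends on these choices, while the part of GC content or RNA composition in any single result was not tested.

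**Figure D1:**
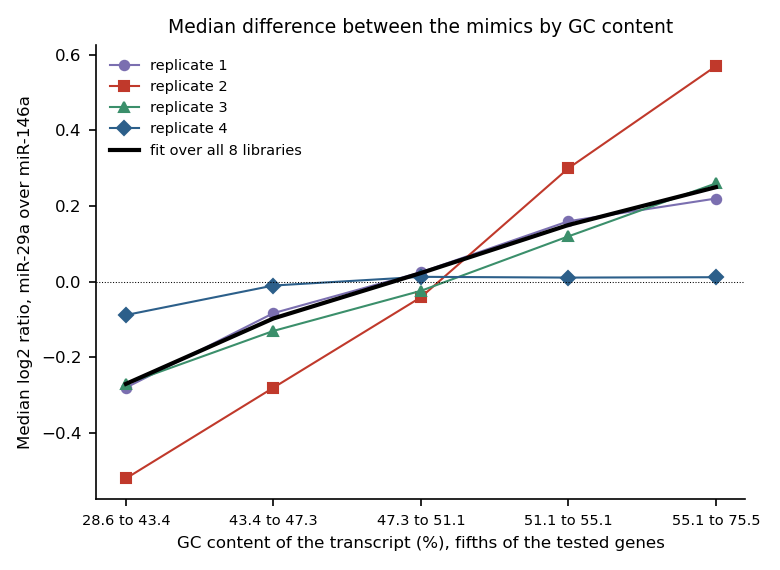
Median log2 ratio of miR-29a over miR-146a (vertical axis) in 5 groups of tested genes by transcript GC content in percent (horizontal axis), for each same-numbered pair of libraries (coloured markers, CPM plus 0.5) and for the fit over all 8 libraries (black line). The line of replicate 2 is the steepest, from -0.52 to 0.57, and that of replicate 4 stays between -0.088 and 0.013.

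Of 16 tested genes that write, read or remove DNA methylation, Dnmt3a, Tet2, Tet3 and Tdg were lower with miR-29a. Dnmt3a, which places new methyl groups on DNA, stood at 169, 203, 193 and 236 CPM in VEH_miR-29a replicates 1 to 4 and at 325, 491, 401 and 516 CPM in VEH_miR-146a. Every miR-29a library lay below every miR-146a library (log2 fold change -1.10, SE 0.16, limma adjusted p = 0.00892). Tet3, which oxidises methylcytosine, stood at 72.6, 63.6, 77.9 and 60.3 CPM against 121, 128, 123 and 113 CPM. These groups were also apart (log2 fold change -0.82, SE 0.13, limma adjusted p = 0.0101). Both genes kept their call without each of the 8 libraries in turn.

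Tet2, a second methylcytosine oxidase, stood at 180, 157, 204 and 221 CPM with miR-29a and at 239, 297, 321 and 311 CPM with miR-146a. The groups did not overlap and the log2 fold change was -0.61 (SE 0.14, limma adjusted p = 0.0382). Tdg, a glycosylase that excises the oxidised bases, stood at 26.1, 17.1, 21.3 and 19 CPM against 41.1, 37, 36.8 and 33.1 CPM. Its log2 fold change was -0.81 (SE 0.16, limma adjusted p = 0.0291). The calls of Tet2 and Tdg were lost in 6 of the 8 fits that left out 1 library, with adjusted p up to 0.114 for Tet2 without VEH_miR-146a replicate 3 and 0.09 for Tdg without VEH_miR-29a replicate 3.

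These 4 were the called members among 15 tested of 29 genes listed as miR-29 targets, 0 of which were higher (26.7% called, against 3.30% of all genes tested and 1.85% called lower). All 15 carried a miR-29a seed match, 13 had a negative log2 fold change, and their median was -0.58 against 0.023 over all genes tested. It came to -0.49 with the GC and length trend removed and -0.52 without both libraries of replicate 2, where none of the 4 passed in limma-voom and 18 genes did in all. With the replicate block, where 5.25% of all genes were called, 8 were lower, adding the survival factor Mcl1 (blocked log2 fold change -0.40), the cell cycle kinase Cdk6 (-0.69), the laminin chain Lamc1 (-0.57) and the growth factor Igf1 (-0.86). Ccnd2, a D-type cyclin, was then called higher at 0.72 although the groups overlapped, with 68.1, 89.6, 84.9 and 121 CPM against 38.4, 53.1, 51.7 and 78.2 CPM. The list was written with knowledge of miR-29 biology and of earlier results of these data, so its direction is not independent evidence. Of the 16 tested DNA methylation writers and erasers as a whole, the same 4 were called (25%), 7 had positive values and the median was -0.10. Uhrf1, which recruits the maintenance methyltransferase, and the glycosylase Mbd4 lay on the higher side, at 0.71 and 0.54 on the log2 scale, without passing the test.

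Extracellular matrix genes were mostly under the filter on low counts, and 12 of 50 were tested. Adam19, a membrane-anchored protease, was the 1 called member (8.33%, against 3.30% of all genes tested) and was lower, at 2.95, 5.7, 6 and 4.18 CPM against 6.5, 10.0, 12.5 and 17.8 CPM (log2 fold change -1.42). It was not called with the replicate block (limma adjusted p = 0.0933), and it lost its call without any 1 of the 8 libraries (up to 0.0996 without VEH_miR-29a replicate 4). The median of the list was -0.36, and Lamc1 and the protease inhibitor Timp2 had log2 fold changes of -0.58 and -0.42 (limma adjusted p = 0.0646 and 0.0551). With the block, where 5.25% of all genes were called, these 2 were the called members, both lower (limma adjusted p = 0.0174 and 0.0415). With the GC and length trend removed 4 members were lower, where 161 of 11886 genes were in all.

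Irak1 and Notch1, of the listed miR-146 targets, were higher with miR-29a, that is lower with miR-146a. Irak1, a kinase that relays Toll-like receptor signals, stood at 154, 173, 163 and 138 CPM with miR-29a and at 90.5, 95.4, 86.4 and 95.9 CPM with miR-146a. The groups were apart by 1.70-fold on average (log2 fold change 0.77, SE 0.12, limma adjusted p = 0.0103), and the adjusted p was 0.0563 without VEH_miR-29a replicate 3. Notch1, a receptor that acts as a transcription activator after cleavage, stood at 42.5, 45.6, 39.1 and 35.9 CPM against 22.5, 17.2, 21.3 and 20.6 CPM. Its log2 fold change was 1.00 (SE 0.16, limma adjusted p = 0.0101), kept without each library in turn.

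Traf6, the ubiquitin ligase that acts next to Irak1, stood at 66.9, 58.3, 60.1 and 72.5 CPM with miR-29a and at 47.3, 43.6, 45.6 and 52.8 CPM with miR-146a. The groups did not overlap, but the log2 fold change of 0.47 did not pass (limma adjusted p = 0.0756), although its 3' UTR holds 4 of the 8-base sites. Over the 17 tested of 21 listed miR-146 targets 2 were higher (11.8%, against 1.45% of all genes called higher) and 0 lower, with a median of 0.055, and 10 of the 17 carried a miR-146a seed match. Without both libraries of replicate 2 the median was 0.0043 and 0 were called, where 18 of 11891 genes were called in all. Irak2, Numb, Relb, Notch2 and Smad4 lay between -0.06 and 0.24 with overlapping groups. Of 33 tested genes of TLR4 and NF-kappa-B signalling, Irak1 was the 1 called gene (3.03%, against 3.30% of all genes tested), with a median of -0.045. Myd88, the adaptor upstream of Irak1, was at 0.79 (limma adjusted p = 0.0564), and Tlr4 itself -0.47 (limma adjusted p = 0.103).

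**Figure D2:**
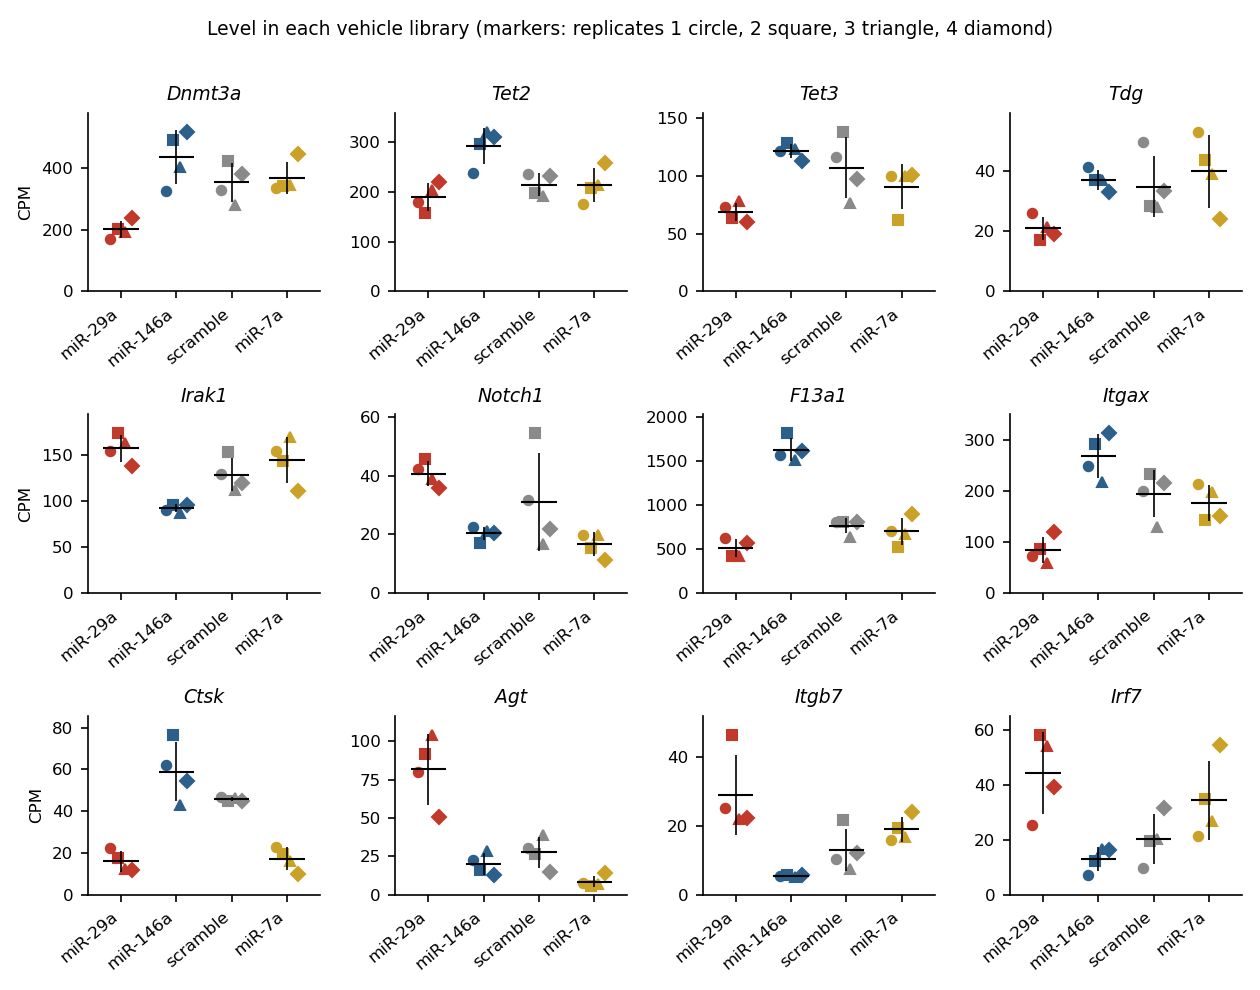
Level of 12 genes in CPM (vertical axes, from 0) in each vehicle library of the miR-29a, miR-146a, scramble and miR-7a groups; markers are the 4 replicates, horizontal lines the group means and vertical lines 1 SD on either side. In all 12 panels the 4 miR-29a libraries lie apart from the 4 miR-146a libraries, and the scramble libraries often lie between them. In VEH_miR-7a replicates 2 to 4, small structural RNA genes held 35.2% to 38.6% of counts.

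Among well expressed genes, F13a1, Itgax and Ctsk were lower with miR-29a by a wide margin. F13a1 (chromosome 13, 36867178 to 37050244, minus strand), the catalytic subunit of coagulation factor XIII, stood at 620, 418, 419 and 566 CPM with miR-29a and at 1570, 1810, 1510 and 1610 CPM with miR-146a. It was 3.23-fold higher with miR-146a, the smallest adjusted p of all genes (log2 fold change -1.69, SE 0.14, limma adjusted p = 0.000428). The VEH_scramble level was 763 ± 85.5 CPM (SD, n = 4), so the miR-146a libraries were the ones farther from it. Against scramble the log2 fold change was 1.07 with miR-146a (limma adjusted p = 0.00949) and -0.63 with miR-29a (0.280).

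Itgax (chromosome 7, 128129547 to 128150657), the integrin chain CD11c, stood at 72.8, 86.1, 58.8 and 119 CPM with miR-29a against 248, 292, 217 and 312 CPM with miR-146a. Its scramble level of 194 ± 45.7 CPM (SD, n = 4) lay between them, and the log2 fold change was -1.68 (SE 0.20, limma adjusted p = 0.00366). Ctsk (chromosome 3, 95499256 to 95509362), the collagen-degrading cathepsin K, stood at 22.1, 17.7, 12.2 and 11.8 CPM against 62.1, 76.5, 43.1 and 54.3 CPM. It carries 1 seed match of miR-29a, and against scramble it was lower with miR-29a (log2 fold change -1.65, limma adjusted p = 0.0215). It was 1 of 2 genes called in that comparison of 11719 tested genes, while 299 of 11827 were called between miR-146a and scramble. Small structural RNA genes held 6.82% to 12% of counts in the scramble libraries, against 3.81% to 7.26% in VEH_miR-146a and 4.42% to 18.8% in VEH_miR-29a. The part of this in the scramble comparisons was not tested.

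E330009J07Rik, an uncharacterised protein-coding gene with 2 miR-29a seed matches, stood at 43.0, 59.2, 57.9 and 73.8 CPM against 115, 241, 152 and 224 CPM (log2 fold change -1.61). Wfdc17, a secreted macrophage protein, stood at 24.1, 13.6, 16.5 and 14.9 CPM against 46.1, 53.2, 43.1 and 37.4 CPM (-1.39). F13a1, Itgax, Ctsk, E330009J07Rik and Wfdc17 kept their calls without each of the 8 libraries. Ms4a4a, a membrane-spanning protein of macrophages, had the most negative log2 fold change of the named genes at -3.81 (SE 0.62), from 0.162 to 1.97 CPM with miR-29a against 6.66 to 18.9 CPM, and its adjusted p was 0.0597 without VEH_miR-29a replicate 3. The other 6 genes named in this direction were lowly expressed, with log2 fold changes from -2.94 to -1.36: Ugt1a10, Col20a1, Vnn3, Taf7, Adam19 and Dram1. Each of these lost its call without 4 or more of the 8 libraries in turn, with adjusted p up to 0.131 for Ugt1a10 without VEH_miR-29a replicate 4, and Col20a1 was not called with the block (limma adjusted p = 0.0574).

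On the higher side, Agt (chromosome 8, 124556534 to 124569706, minus strand), the precursor of angiotensin, stood at 79.9, 91.8, 104 and 50.6 CPM with miR-29a and at 22.5, 15.8, 28.5 and 13 CPM with miR-146a (log2 fold change 2.04, SE 0.29, limma adjusted p = 0.00830). Itgb7, an integrin beta chain of leukocytes, stood at 25.3, 46.5, 22 and 22.2 CPM against 5.32, 5.82, 5.12 and 5.57 CPM (2.25, SE 0.29, 0.00544). In both genes the groups were clearly apart.

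Rab44, a large Rab GTPase, had 7.78 to 13.9 CPM with miR-29a and 1.02 to 2.96 CPM with miR-146a (log2 fold change 2.75), and Pilra, an inhibitory receptor of myeloid cells, 11.4 to 22.6 and 2.20 to 4.58 CPM (2.21). Agt, Itgb7, Rab44 and Pilra kept their calls without each library in turn. Gm12033 had the largest named log2 fold change, 4.49 (SE 0.76), with 3.6 to 13.6 CPM against 0 to 0.334 CPM, which is near or under the level of 3 counts. It is a processed pseudogene, so its reads may belong to a parent gene and its value is uncertain, and its adjusted p was 0.0677 without VEH_miR-146a replicate 3. Lbp, the LPS-binding protein, Rapsn, Slco4a1, the chemokine Ccl9, Echdc2 and Fam65b had log2 fold changes from 1.94 to 2.64 and lost their calls without 1 to 7 of the 8 libraries, with adjusted p up to 0.105 for Fam65b without VEH_miR-29a replicate 3.

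**Figure D3:**
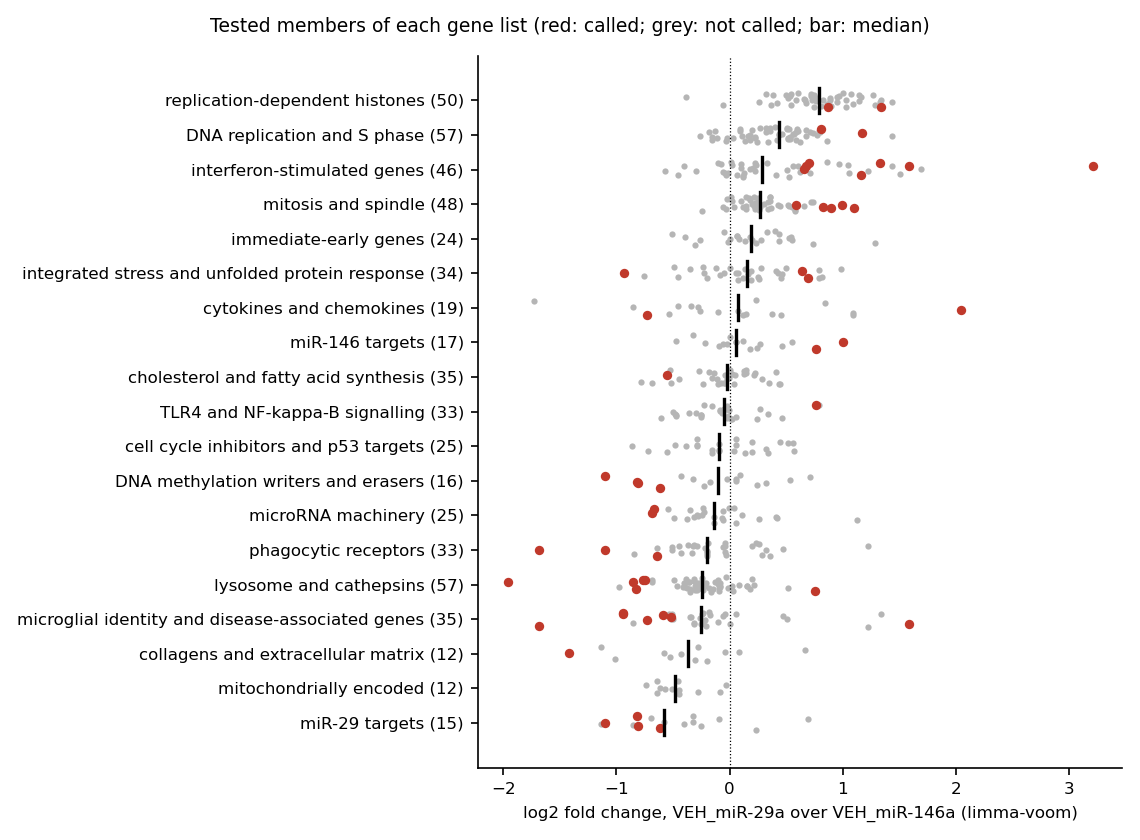
Log2 fold change of VEH_miR-29a over VEH_miR-146a (horizontal axis) for each tested member of 19 gene lists (rows, number of tested members in brackets), with called genes in red, other genes in grey and the median as a bar. The miR-29 targets have the lowest median, -0.58, and the replication-dependent histones the highest, 0.79.

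Lysosomal, phagocytic and microglial activation genes leaned to lower levels with miR-29a. Of 57 tested genes of the lysosome, 5 were lower (Ctsk, Ctss, Ctsf, Hgsnat and Man2b1) and 1, the heparan sulfatase Sgsh, was higher at 0.76, with a median of -0.24 and 46 negative values. The share called was 10.5%, against 3.30% of all genes tested. With the replicate block, where 5.25% of all genes were called, 13 were lower and 0 higher, and 1 was lower without both libraries of replicate 2, where 18 of 11891 genes were called in all. With the GC and length trend removed 9 were lower and 0 higher, where 161 of 11886 genes were lower and 61 higher in all, and the median was -0.33. Hgsnat, which acetylates heparan sulfate for its breakdown, stood at 128, 94.7, 95.6 and 97.6 CPM against 191, 196, 177 and 187 CPM (log2 fold change -0.86, SE 0.13, limma adjusted p = 0.00901). Man2b1, lysosomal alpha-mannosidase, stood at 426, 428, 334 and 375 CPM against 654, 678, 604 and 686 CPM (-0.75), and its adjusted p was 0.0563 without VEH_miR-29a replicate 3. The cathepsins Ctss and Ctsf had log2 fold changes of -0.83 and -0.77, and both of these and Sgsh were named after their values were seen. Sgsh was not among the genes called with the block. The microglial markers had a median of -0.15 over 14 tested, of which Lyz2, lysozyme, was called lower at -0.94. Their part in the lists was not tested.

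Of 33 tested phagocytic receptor genes, 3 were lower and 0 higher (9.09%, against 3.30% of all genes tested), and 7 were lower with the block, where 5.25% of all genes were called. Fcgr2b, the inhibitory Fc gamma receptor, stood at 132, 88.4, 108 and 93.7 CPM against 222, 231, 220 and 228 CPM (log2 fold change -1.10, SE 0.13, limma adjusted p = 0.00366). Itgb2, the beta chain that pairs with Itgax, stood at 156, 142, 132 and 150 CPM against 237, 213, 209 and 256 CPM (-0.64), and its adjusted p was 0.0841 without VEH_miR-29a replicate 3. The list median was -0.20, and -0.24 without both libraries of replicate 2, where 2 members of the list and 18 of all 11891 genes were called.

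Of 35 tested genes of microglial identity and of disease-associated microglia, 6 were lower and 1 was higher (20%, against 3.30% of all genes tested), with a median of -0.25. With the block, where 5.25% of all genes were called, 13 were lower and 1 was higher. Without both libraries of replicate 2, where 18 of 11891 genes were called in all, these were 1 and 0. Lpl, lipoprotein lipase, stood at 1360, 1430, 1710 and 1870 CPM against 2470, 2160, 2440 and 2570 CPM (log2 fold change -0.59, limma adjusted p = 0.0318, up to 0.0846 without VEH_miR-146a replicate 3). Cst7, a cystatin that inhibits cathepsins and is itself a marker of disease-associated microglia, went the other way, although its 3' UTR holds an 8-base miR-29a match. It stood at 65.9, 67.1, 101 and 105 CPM with miR-29a and at 23.7, 14.8, 42.5 and 35.2 CPM with miR-146a (1.59, SE 0.29, limma adjusted p = 0.0207), and its adjusted p was 0.0757 without VEH_miR-29a replicate 3. Ccl6, a chemokine of myeloid cells, was lower at 27.2 to 39.6 against 53 to 67.2 CPM (-0.73, up to 0.105 without VEH_miR-29a replicate 3), so that of 19 tested cytokines and chemokines Ccl6 and Ccl9 were called, in opposite directions (10.5%, against 3.30% of all genes tested).

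Of the genes called with the replicate block alone whose pairs all had one sign and which reached 5 CPM, 103 were higher and 188 lower. On the lower side, Mrc1, the mannose receptor, had 325, 122, 169 and 142 CPM with miR-29a and 438, 319, 338 and 221 CPM with miR-146a. The groups overlapped, yet within each replicate number the miR-29a library was the lower one. The blocked log2 fold change was -0.85 (limma adjusted p = 0.0105). Igf1 (-0.86), Spic, Tnip3, Atp6v0d2, Ms4a6d and Tsc22d3 were also called lower with the block alone. Zfp458, Gm4944, Gm28438 and Gm5431 were too, the latter 3 being predicted genes whose reads may be shared with near copies. On the higher side were Hp, haptoglobin (blocked log2 fold change 2.24), the relaxin receptor Rxfp1 (2.02), and the interferon-stimulated genes Ifi27l2a (1.84) and Oas3 (1.70). The other 8 named there were histone genes or structural and other noncoding RNAs, among them Terc and Rmrp.

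Interferon-stimulated genes leaned to the higher side. Of 46 tested, 7 were higher and 0 lower: Cmpk2, Oas1a, Oasl1, Oasl2, Irf7, Stat2 and Bst2. The share called was 15.2%, against 3.30% of all genes tested and 1.45% called higher, and the list median was 0.28. It was 0.33 with the GC and length trend removed, where 2 were called (222 of 11886 genes in all), and 0.20 without both libraries of replicate 2, where 0 were (18 of 11891 in all). With the replicate block, where 5.25% of all genes were called, 8 members were higher and 1, Slfn2, was lower. Irf7, a transcription factor of the interferon response, stood at 25.3, 58.2, 54.1 and 39.4 CPM with miR-29a and at 7.10, 12.1, 16.5 and 16.2 CPM with miR-146a (log2 fold change 1.59, SE 0.29, limma adjusted p = 0.0203). The groups did not overlap, and the adjusted p was 0.0675 without VEH_miR-29a replicate 3. Oasl2 and Oasl1, members of the oligoadenylate synthetase family, had log2 fold changes of 1.33 and 1.16 and each lost its call in 6 of the 8 fits that left out 1 library (up to 0.101 for Oasl2 without VEH_miR-29a replicate 3 and 0.0846 for Oasl1 without VEH_miR-146a replicate 3). Oasl1 was not called with the block either (limma adjusted p = 0.0532).

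Genes of cell division leaned the same way. Of 48 tested genes of mitosis and the spindle, 5 were higher and 0 lower (Cdc20, Plk1, Birc5, Racgap1 and Espl1), 44 had positive values, and the median was 0.27. The share called was 10.4%, against 3.30% of all genes tested, and 1 was called with the GC and length trend removed, where 222 of 11886 genes were in all. Without both libraries of replicate 2 the median was 0.37 and 0 members were called, of 18 calls among 11891 genes. Plk1, a mitotic kinase, stood at 23.4, 40.8, 27.5 and 30.0 CPM against 15.4, 15.1, 13.6 and 20.1 CPM (log2 fold change 0.90). Birc5, survivin, stood at 16, 17.1, 19.8 and 17.8 CPM against 13.6, 5.97, 7.68 and 10.9 CPM (1.10). Both sit close to the threshold (limma adjusted p = 0.0377 and 0.0318), and without VEH_miR-146a replicate 3 they were 0.126 and 0.103.

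Of 57 tested genes of DNA replication and S phase, 2 were higher and 0 lower (3.51%, near the 3.30% of all genes tested), with 49 positive values and a median of 0.43. Pole, the catalytic subunit of DNA polymerase epsilon, had a log2 fold change of 0.80. It was not called with the block (limma adjusted p = 0.0508), and it lost its call when any of 7 of the 8 libraries was left out (limma adjusted p up to 0.139, without VEH_miR-146a replicate 3). Of the mitotic genes, Plk1 and Birc5 were at 30.7 ± 5.12 and 20.8 ± 3.15 CPM with scramble (SD, n = 4 each), at the miR-29a level, and their log2 fold changes of miR-146a against scramble were -0.94 and -1.31 (limma adjusted p = 0.0377 and 0.0292).

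Replication-dependent histone genes had the highest median of the 19 gene lists other than cell type markers, 0.79 over 50 tested genes, 48 of them positive. Hist1h2bf and Hist1h2bg were called (4.0%, near the 3.30% of all genes tested), and both lost the call without 6 or more of the 8 libraries in turn (up to 0.106 for Hist1h2bg without VEH_miR-146a replicate 2). Hist1h2bf was not called with the block (limma adjusted p = 0.0818), where 16 histone genes were called higher and 1 lower and 5.25% of all genes were called. Hist1h2bg stood at 65.2, 130, 76.7 and 73.5 CPM against 40.2, 40.5, 45.7 and 51.4 CPM. Hist1h4f, called with the block alone, stood at 105, 664, 152 and 107 CPM against 54.4, 96.4, 58.4 and 74.5 CPM, so that VEH_miR-29a replicate 2 alone carried much of its mean. The same library was the highest for Terc, the telomerase RNA, with 833 CPM against 121 to 260 in the other miR-29a libraries. Rmrp, the RNA of RNase MRP, had 25200 CPM there against 2740 to 8250.

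Histone transcripts lack a poly(A) tail and, like Terc and Rmrp, are measured because the libraries were made from total RNA. Their transcripts were GC-rich (median 59.3%, against 49.2% over all genes tested), and the median of the list was 0.44 with the GC and length trend removed. Histone genes are near copies of each other, and how reads were divided among them is not given, so single members are uncertain. The scramble libraries held 173 ± 91.7 CPM of Hist1h2bg (SD, n = 4), above both mimics. The mitochondrially encoded genes, with a median GC content of 37.4%, had negative values in 12 of 12, a median of -0.48 and 0 calls in limma-voom, edgeR or DESeq2 (0 at an unadjusted p under 0.05). Their median was -0.25 with the GC and length trend removed, and 7 were lower with the block, where 5.25% of all genes were called. mt-Atp8, a subunit of ATP synthase, was 1 of these (blocked log2 fold change -0.77).

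The remaining lists held 0 to 3 called genes each, where 3.30% of all genes tested were called. Psat1 and Phgdh, enzymes of serine synthesis, were higher with log2 fold changes of 0.69 and 0.64, and the cystine transporter Slc7a11 was lower at -0.93, out of 34 tested genes of the integrated stress and unfolded protein responses. Slc7a11 was not called with the block (limma adjusted p = 0.0543). Abca1, which exports cholesterol, was lower at -0.56, the 1 called gene of 35 in lipid synthesis. Of 25 tested genes of the microRNA machinery, Ago3, an Argonaute with 2 miR-29a seed matches, and the decapping enzyme Dcp2, with 1, were lower at -0.68 and -0.67. All 6 lost their calls without 4 or more of the 8 libraries in turn (up to 0.146 for Dcp2 without VEH_miR-29a replicate 3). Of 25 cell cycle inhibitors and p53 targets 0 were called in limma-voom and edgeR and 1 in DESeq2, with 5 at an unadjusted p under 0.05. Of 24 immediate-early genes 0 were called in limma-voom, edgeR and DESeq2, with 3 at an unadjusted p under 0.05.

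Across all tested protein-coding genes, those with a miR-29a seed match sat lower. The 1419 genes with a match of 7 or 8 bases for miR-29a alone had a median log2 fold change of -0.058, against 0.052 for the 6704 genes with neither match, and 70 of them were called lower and 8 higher. The median was -0.046 with 1 match, -0.11 with 2 and -0.22 with 3 or more (47 genes), and -0.16 for the 218 genes with an 8-base match. The median with a miR-29a match alone lay below that of genes with neither match in each of the 4 same-numbered pairs and in each quintile of GC content. With the GC and length trend removed these medians were -0.092 and -0.024, a smaller gap. In the LPS libraries, which the contrast does not use, the median was -0.076 with a miR-29a match alone and 0.043 with neither match. Against scramble under vehicle these medians were -0.025 and -0.014 for the miR-29a mimic, and 0.02 and -0.083 for the miR-146a mimic. For the genes with an 8-base match they were -0.076 with miR-29a and 0.099 with miR-146a. The gap to genes with neither match was thus wider for miR-146a against scramble, and its cause was not tested. Genes with a match have longer 3' UTRs (median 2107 against 936 bases), which was not adjusted for.

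On the miR-146a side the order depended on GC content. The 1581 genes with a miR-146a match alone had a median of 0.018, below that of genes with neither match, and the 342 with an 8-base match 0.0016. From the quintile of lowest to that of highest GC content, however, the medians with a miR-146a match alone were -0.23, -0.059, 0.049, 0.19 and 0.26, against -0.23, -0.082, 0.038, 0.14 and 0.25 with neither match. With the GC and length trend removed they were 0.018 and -0.024, so that the order was reversed. Under LPS these medians were 0.057 and 0.11, against 0.043 with neither match. Of the genes called lower with a known 3' UTR, 46.4% (96 of 207) held a miR-29a match, against 21% of all tested genes and 8.38% of those called higher. The share with an 8-base miR-29a match was 14.5% against 3.45%. A miR-146a match was held by 23.4% of the genes called higher, 25.1% of those called lower and 22.6% of all. An 8-base miR-146a match was held by 6.59%, 3.38% and 4.97%. The genes called lower also had longer 3' UTRs, with a median of 2642 against 1378 bases, and a lower GC content, 44.2% against 49.2%.

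**Figure D4:**
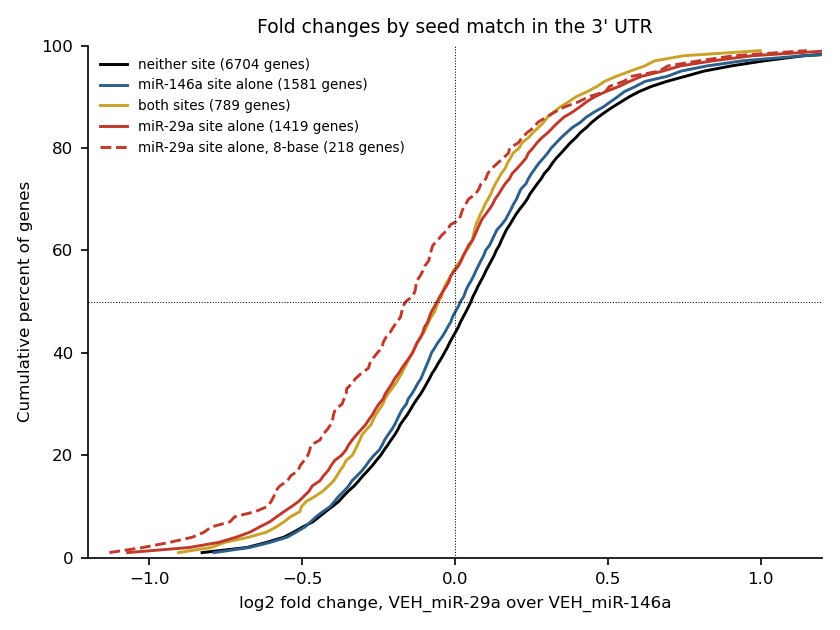
Cumulative percent of tested protein-coding genes (vertical axis) against the log2 fold change of VEH_miR-29a over VEH_miR-146a (horizontal axis), by seed match in the 3' UTR; the curves run from percentile 1 to 99 and are clipped at the axis limits. The curve of genes with an 8-base miR-29a match lies farthest to the left up to percentile 86, with its median at -0.16, and above that the curve of genes with both matches does, whereas that of genes with a miR-146a match alone stays close to that of genes with neither.

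The scramble level lay between the means of both mimics for 137 of the 173 genes called higher and for 141 of the 221 called lower. For the genes called lower it was below both for 69 and above both for 11. Their median log2 fold change was -0.20 for miR-29a against scramble and 0.58 for miR-146a against scramble. For the genes called higher the medians were 0.34 and -0.59. Both comparisons share the scramble libraries and reuse the libraries of the contrast, so these are descriptions. The scramble libraries also held more structural RNA than most miR-146a libraries, and the part of this was not tested.

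In the LPS libraries the same pair of mimics differed for 1527 of 12622 genes tested (12.1%), 688 higher and 839 lower with miR-29a. Of the genes called lower under vehicle, 217 were tested there, 209 had the same sign and 103 were called lower (47.5%, where 6.65% of all genes were called lower). Of those called higher, 172 were tested, 145 had the same sign and 37 were called higher (21.5%, against 5.45%), while 3 were called lower. The median log2 fold change went from -0.73 to -0.49 for the first set and from 0.92 to 0.36 for the second. Both sets were chosen by their vehicle values, so smaller medians in other libraries can follow from that choice. Over all genes tested under LPS the median was 0.0291. Dnmt3a stood at 109, 119, 102 and 118 CPM in the LPS_miR-29a libraries and at 345, 444, 421 and 397 CPM in LPS_miR-146a (log2 fold change -1.85, limma adjusted p = 1.53e-05). Itgax and Ctsk had -2.53 and -2.64 there. Irak1 had 0.42 (limma adjusted p = 0.0557) and Notch1 0.53 (0.0491).

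Most of these lists had a median of the same sign under LPS. Of the interferon-stimulated genes 40 of 56 tested were higher with miR-29a and 0 lower, with a median of 1.0, and of the DNA replication genes 42 of 57 were higher and 0 lower, with a median of 0.92. Of the lysosomal genes 23 of 57 were lower and 0 higher (median -0.45), and of the phagocytic receptors 16 of 34 were lower and 2 higher (-0.63). Of the miR-29 targets 7 of 15 were lower and 1 was higher (-0.48), and of the miR-146 targets 3 of 18 were higher and 2 lower (0.18). The mitochondrially encoded genes, by contrast, had a median of 0.45 there against -0.48 under vehicle. The sign also differed for the immediate-early genes (0.19 under vehicle and -0.35 under LPS) and the microRNA machinery (-0.14 and 0.072). It differed too for TLR4 and NF-kappa-B signalling (-0.045 and 0.016) and lipid synthesis (-0.021 and 0.065). The counts of called members are read against the 12.1% of all genes called under LPS.

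**Figure D5:**
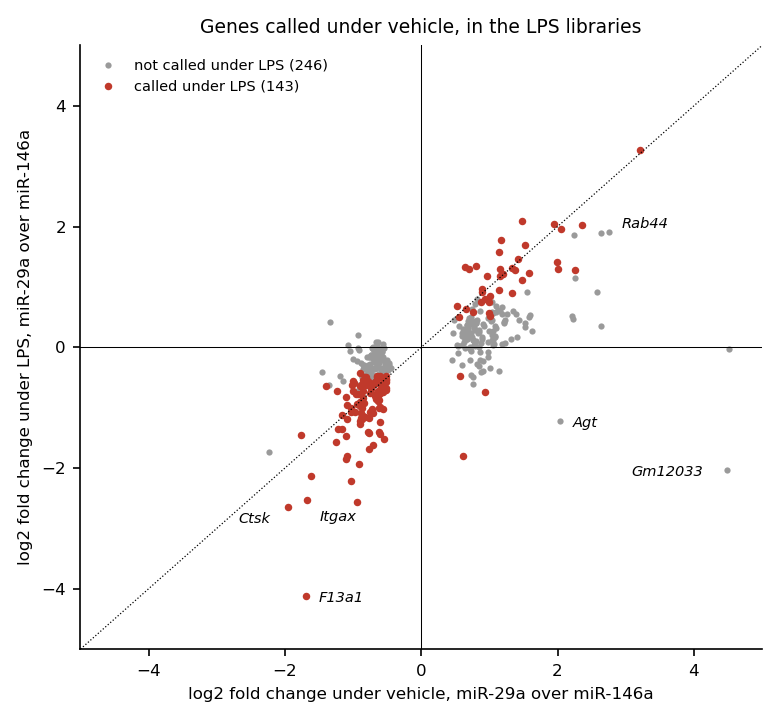
Log2 fold change of miR-29a over miR-146a under vehicle (horizontal axis) and under LPS (vertical axis) for the genes called under vehicle and tested under LPS; red points were also called under LPS and the dotted line marks equal values. Most genes keep their sign, F13a1 lies far below the line at -4.12 under LPS, and Agt and Gm12033 cross zero.

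A direct test of whether the difference between the mimics differed between LPS and vehicle called 127 of 12536 genes (1.01%), 19 with a more positive and 108 with a more negative value under LPS. With the block it called 1007, and it called 21 without LPS_miR-29a replicate 3 and 285 without LPS_miR-29a replicate 2. Of the 127, 29 were lower with miR-29a in both conditions, 5 were higher in both and 93 had opposite signs. F13a1 stood under LPS at 13.9, 4.94, 9.29 and 3.89 CPM with miR-29a and at 143, 105, 161 and 79.8 CPM with miR-146a. Its difference between the mimics was thus more negative under LPS by -2.44 (SE 0.37, limma adjusted p = 0.00534).

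Myom3, a muscle M-band protein, had the smallest adjusted p of this test. It stood at 99.9, 151, 130 and 154 CPM against 71.5, 90.4, 98.2 and 100 CPM under vehicle, and at 26.9, 26.8, 22.6 and 21.8 CPM against 60.8, 78.1, 68.0 and 73.3 CPM under LPS. The vehicle groups overlapped and the log2 fold change of 0.54 did not pass there (limma adjusted p = 0.0843), while under LPS it was -1.52 (limma adjusted p = 0.000186). The difference between them was -2.07 (SE 0.21, limma adjusted p = 0.00013). Selenbp1, a methanethiol oxidase, was higher with miR-29a under vehicle (0.62) and lower under LPS (-1.80). Its vehicle call was lost in 6 of the 8 fits that left out 1 library (limma adjusted p up to 0.105 without VEH_miR-29a replicate 3). Gsn, gelsolin, which severs actin filaments, had a log2 fold change of -0.01 under vehicle and was lower under LPS (-1.80). Anxa2, an annexin, and Mxd4, a Max-binding repressor, had 0.53 and 0.18 under vehicle and -0.91 and -1.45 under LPS. Agt, called higher under vehicle, had -1.22 under LPS, where all 8 libraries were at or below 3.76 CPM.

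Reads from overlapping genes may affect some of these values. A gene on the opposite strand overlaps 66 of the 173 genes called higher, 99 of the 221 called lower and 5100 of the 11932 tested, among them F13a1 (Gm30489 and Gm49144), Dnmt3a (Dnmt3aos), Tdg (Glt8d2), Notch1 and Irf7 (Phrf1). Whether reads were counted by strand is not given in the sources used here, so a gene and its antisense partner cannot be told apart.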

How the data were processed

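RNA of BV-2 cells was sequenced as total RNA libraries (Lexogen CORALL) after ribosomal RNA depletion, and 32 libraries in 8 groups of 4 are described, of which 8 enter the main contrast. The deposited table holds estimated counts per gene, which the authors made with the nf-core rnaseq workflow against GRCm38; the aligner, the quantifier, the annotation release and the strand setting are not given in the sources used here. Many deposited values had lost their decimal mark. The mark was restored by a model that compares each value with the other libraries of the same gene, assuming 1 to 3 decimals. It weighs libraries of the same mimic and LPS group most, so it uses the group labels that the contrast compares. Of the called genes, 253 held restored values. The share called was 3.49% among tested genes with restored values and 3.01% among those with all 8 values as deposited. Of 144395 values above 0 in the 8 libraries, 27.1% were read with a restored mark and 0.91% had a posterior probability under 0.9. The 334 genes with such a value were left out, and 141 of the 394 called genes rest on values as deposited throughout. Depth after restoration limits each library to a level of 3 counts, given in the report, and this covers counting error only.

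Genes passing filterByExpr were scaled by TMM and tested with limma-voom (limma 3.58.1, edgeR 4.0.16, R 4.3.3). The study also filtered with filterByExpr, scaled by TMM and fitted each pair of conditions with limma/edgeR, but voom is not stated in its methods and the log transformation it names was not repeated. Genes were called at a Benjamini-Hochberg adjusted p under 0.05 over all genes tested and an absolute log2 fold change above 0.3. Alternatives were the replicate number as a block, edgeR quasi-likelihood, DESeq2 1.42.0 on rounded counts, other scalings, filters and restorations, removal of GC and length trends, and leaving out libraries. Same-numbered libraries deviated together: the correlations of their deviations from the group means were 0.426, 0.147, 0.277 and 0.26. Between unlike numbers the correlations ran from -0.373 to 0.157, the highest being VEH_miR-29a replicate 4 with VEH_miR-146a replicate 3, above that of replicate 2. The numbers thus pair the samples by this measure, least clearly for replicate 2. The methods state independent experiments, and p-values measure the spread between these. The genes named were, per direction, the 12 largest called changes of one sign in 4 of 4 pairs with at least 5 CPM in the higher group, up to 12 called with the block alone, all listed miR-29 and miR-146 targets, the 3 smallest p-values of each other list, and 6 genes of the interaction. Members and lists were chosen with earlier results of these data known. Seed matches of 7 or 8 bases were searched in the longest 3' UTR of each gene in GENCODE M21, to which 45143 of 45706 genes matched. A few named genes are not reported here. The restoration and the fits were also run on simulated data. These held no GC trend and no pairing of replicates, and took the places of lost marks from the restoration itself. They therefore cannot test those points.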

Additional observations from a re-analysis of the deposited data

Results flagged for a closer look

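Of 246 groups of 4 libraries checked for the named genes, 17 held a value far from the other 3, where chance gives about 1 in 20. In VEH_miR-29a replicate 2 these were high values of Itgb7 (46.5 CPM), Gm25788 (23.5 CPM), Rny1 (140.0 CPM), Gm24305 (285 CPM), Hist1h3f (404 CPM), AC122546.1 (288 CPM), Hist1h4f (664 CPM), Hist1h2bf (51.0 CPM) and Espl1 (98.5 CPM). Several of these are small structural RNAs or histone genes, and this library also held the largest share of structural RNA. Rny1 was also apart in VEH_miR-146a replicate 2 (23.3 CPM). In VEH_miR-29a replicate 1 the values that stood apart were Zmat3 (35.4 CPM), Hgsnat (128 CPM) and mt-Co3 (5350.0 CPM). The others were Gm4944 (11.7 CPM) and Smad4 (20.3 CPM) in VEH_miR-29a replicate 3, Slc7a11 (22 CPM) in VEH_miR-29a replicate 4 and Hdac4 (64.8 CPM) in VEH_miR-146a replicate 4.

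The difference between the mimics itself differed between LPS and vehicle for 127 genes in limma-voom. Among the named genes, the LPS minus vehicle difference on the log2 scale was -3.3 for Agt, -2.44 for F13a1, -1.66 for Egr3, -2.07 for Myom3, -2.44 for Selenbp1, -1.83 for Gsn, -1.47 for Anxa2 and -1.64 for Mxd4.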

How the results depend on the processing

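The count of 394 called genes became 627 with the replicate block, 997 with DESeq2, 852 with sample quality weights and 249 without TMM. In limma-trend it was 387, and 222 with the GC and length trend removed. In limma-trend with the replicate block it was 1465, a fit added after seeing the data, and 1246 with that trend removed. It was 24 with the values as deposited, where 2 genes were shared with the 394. Leaving out 1 library or a same-numbered pair gave 7 to 353 calls. The LPS count of 1527 was 3272 with the replicate block and 736 to 1623 without 1 library, and the interaction count of 127 was 1007 with the block and 21 to 285 without 1 library.

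Under 31 alternatives other than the values as deposited, 0 of the 53 called named genes changed sign, 1213 of 1636 fits kept the call, and 46 kept it with the replicate block. Among the other 7 calls, lost there, were Col20a1, Adam19, Oasl1, Hist1h2bf, Pole and Slc7a11. With the values as deposited the log2 fold change turned to -0.32 for Fam65b, 3.75 for E330009J07Rik, 0.91 for Fcgr2b, 1.74 for Itgb2, 2.80 for Lpl, 0.53 for Slc7a11, 0.61 for Ago3 and -0.0742 for Selenbp1. These values lack decimal marks by construction.

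The median log2 fold change of genes with a miR-29a match alone was -0.16 for 8-base sites, -0.082 above 10 CPM and -0.092 with the GC and length trend removed. For a miR-146a match alone it was -0.0072 for 8-base sites, -0.011 above 10 CPM, 0.018 with the GC and length trend removed, above genes with neither match, and -0.0015 to 0.018 without 1 library. It was -0.18 for both matches at 8 bases, and for neither match 0.028 above 10 CPM and -0.024 with the trend removed. The cause of these shifts was not tested. Shallow libraries limit genes near 3 counts.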
